A study of Mus musculus with 11 samples.

Results

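The TNF superfamily ligands are a group of secreted and membrane-bound cytokines, and 10 of them were described here in mouse RAW macrophage-type cells: Tnf, Lta, Ltb, Tnfsf9, Tnfsf10, Tnfsf12, Tnfsf13, Tnfsf13b, Tnfsf14 and Tnfsf15. They were chosen by gene symbol, and each symbol was found once among the 52143 genes of the deposited table, so all 10 were measured. RNA came from shGIV cells, in which a short hairpin lowers GIV (also called Girdin, encoded by Ccdc88a), and from shC cells, the control for that hairpin. Both kinds of cell were sampled after 5 h of LPS at 100 ng/ml and without LPS. LPS, or lipopolysaccharide, is the bacterial cell wall component that macrophages sense through Toll-like receptor 4. There were 3 libraries of shGIV cells with LPS, 1 of shC cells with LPS (set 2), 3 of shGIV cells without LPS, and 2 of shC cells without LPS (sets 1 and 3), with a further shC library without LPS (set 2) shown apart. Whether the 3 sets were independent cultures is not stated, and p-values therefore measure only the spread between these libraries.

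Ligands of this family form trimers that bind receptors of the TNF receptor superfamily, which signal through TRAF adaptors to NF-kB and MAP kinases or through death domains to caspases. Several are made as membrane proteins and released by proteases, ADAM17 in the case of TNF and furin for several others. TNF is the classical early cytokine of macrophages exposed to LPS, and its mRNA is short-lived because AU-rich elements in its 3′ UTR bind the decay factor tristetraprolin. All levels below are in TPM, a unit of relative transcript abundance that corrects for transcript length, and they describe mRNA, not protein.

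The promoters of 4 ligands are shown: those of the neighbouring genes Tnf, Lta and Ltb, which were all higher with LPS, and that of Tnfsf15, whose LPS response differed between the lines. Each line gives the 250 bases before the RefSeq transcription start on GRCm38.p6, 5′ to 3′ on the gene's strand. Capitals mark a match to a TATA box (TATAAA, searched on the gene's strand) or to the NF-kB consensus (searched on both strands).
Tnf, chr17:35202008-35202257, minus strand: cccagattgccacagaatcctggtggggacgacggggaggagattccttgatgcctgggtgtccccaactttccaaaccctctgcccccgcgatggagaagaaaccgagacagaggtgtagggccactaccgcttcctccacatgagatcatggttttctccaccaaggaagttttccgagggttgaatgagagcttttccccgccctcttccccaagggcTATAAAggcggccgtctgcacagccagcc
Lta, chr17:35205352-35205601, minus strand: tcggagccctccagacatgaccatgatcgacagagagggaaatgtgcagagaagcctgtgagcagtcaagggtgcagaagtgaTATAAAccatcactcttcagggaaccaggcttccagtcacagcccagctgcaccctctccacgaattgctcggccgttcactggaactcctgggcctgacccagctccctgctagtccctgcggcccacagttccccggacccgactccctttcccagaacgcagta
Ltb, chr17:35194257-35194506, plus strand: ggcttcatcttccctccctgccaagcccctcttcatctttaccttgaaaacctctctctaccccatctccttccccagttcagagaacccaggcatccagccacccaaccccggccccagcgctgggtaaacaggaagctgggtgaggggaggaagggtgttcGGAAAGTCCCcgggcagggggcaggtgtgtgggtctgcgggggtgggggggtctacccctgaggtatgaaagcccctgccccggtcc
Tnfsf15, chr4:63745060-63745309, minus strand: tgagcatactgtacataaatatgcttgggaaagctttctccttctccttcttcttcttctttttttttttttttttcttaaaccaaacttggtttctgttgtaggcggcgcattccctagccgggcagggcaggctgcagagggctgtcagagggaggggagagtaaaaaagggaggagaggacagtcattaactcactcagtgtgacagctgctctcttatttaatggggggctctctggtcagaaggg
The Tnf promoter held a TATA box at positions -29 to -24 from the start, and that of Lta held the same letters farther off, at -167 to -162. The Ltb promoter held an NF-kB match on the opposite strand at -87 to -78. No searched motif was in the Tnfsf15 window. Among 32851 windows of the same length, 7.25% held the NF-kB consensus, 7.59% the TATA letters, 6.75% the AP-1 site (TGANTCA, both strands) and 2.98% the interferon-stimulated response element (GAAANNGAAA, both strands). Promoters were found for 8 of the 10 ligands. Of the other ligands, Tnfsf13, Tnfsf14 and the second start of Tnfsf13b had an AP-1 site, the second start of Tnfsf13b also had the interferon element at -16 to -7, and Tnfsf10 had none of these motifs.

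The 3′ UTR of Tnf is shown for its AU-rich element, the stretch that tristetraprolin binds. Capitals mark the AU-rich motif TATTTAT, and the stretch is bases 438 to 467 of the 764-base 3′ UTR (GENCODE M21, GRCm38 chromosome 17, minus strand).
Tnf AU-rich element: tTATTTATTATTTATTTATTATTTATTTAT
This window held 5 overlapping copies of the motif, and the whole Tnf 3′ UTR held 8. Lta and Tnfsf10 held 3 copies each, Tnfsf9 held 2, Tnfsf14 held 1, and the other 5 ligands held none. Of 18394 mouse 3′ UTRs, 25.6% held at least 1 copy and 3.71% at least 3.

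The library of shC cells without LPS from set 2 stood apart in composition before any ligand was considered. The microRNA gene Mir6236 made up 57.8% of all TPM there and 3.79% to 8.78% elsewhere, and protein-coding genes made up 7.80% there and 73.9% to 81.5% elsewhere. Its ligand values are given apart, and each test was made with 9 libraries and again with all 10. Ccdc88a, the hairpin's target, was at 3.08, 2.62 and 3.39 TPM in shGIV cells with LPS, against 5.77 TPM in shC cells with LPS, and at 6.93, 5.31 and 5.58 TPM in shGIV cells without LPS, against 10.0 and 7.69 TPM in shC cells without LPS. Of 8 macrophage markers, 7 were above 1 TPM in each of the 9 libraries, and Mertk was near 0. The summed macrophage marker level was 9260 to 9579 TPM in shGIV cells with LPS and 11293 TPM in shC cells with LPS. Without LPS it was 16506 to 17049 TPM in shGIV cells and 17757 to 18045 TPM in shC cells, and its part in the ligand differences was not tested. Lyz2 made up most of this sum, at 7974 to 8214 TPM in shGIV cells with LPS and 14648 to 15085 TPM without. In shC cells Lyz2 was at 9538 TPM with LPS and at 15831 and 15913 TPM without. Csf1r and Cd68 were also lower with LPS in both lines, while Ptprc, Adgre1, Itgam and Fcgr1 were higher. Summed markers of T cells, NK cells, fibroblasts and epithelium stayed below 1 TPM in each library, with Ncr1, Klrb1c, Gzma and Krt18 listed at 0 throughout. B cell markers summed to 0.726 to 0.955 TPM in shGIV cells with LPS and to above 1 TPM in shC cells with LPS, against at most 0.445 TPM without LPS. Dendritic cell markers, mainly Xcr1, summed to 4.22 to 4.44 TPM in shGIV cells with LPS and 2.60 TPM in shC cells with LPS, against at most 1.22 TPM without LPS. Granulocyte and mast cell markers, mainly S100a8, summed to 13.2 to 17.3 TPM in shGIV cells with LPS and 16.0 TPM in shC cells with LPS, against 1.07 to 1.44 TPM in shGIV cells and 1.28 to 3.80 TPM in shC cells without LPS, with S100a9 at 0; the part of either in the LPS responses was not tested. In RNA from a whole culture, fewer expressing cells and less mRNA per cell cannot be told apart.

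With LPS, Tnf dominated the family in both lines. The 10 ligands summed to 1488, 1523 and 1341 TPM in shGIV cells with LPS and to 2305 TPM in shC cells with LPS, and Tnf made up 89.3% to 89.9% of that sum in shGIV cells and 91.5% in shC cells. Without LPS the sums were 162, 170 and 168 TPM in shGIV cells and 161 and 184 TPM in shC cells, and the share of Tnf was 46.8% to 47.8% in shGIV cells and 41.6% to 44.6% in shC cells. Among all genes, Tnf ranked 107 to 126 by TPM in shGIV cells with LPS and 59 in shC cells with LPS, against 1656 to 1688 in shGIV cells and 1707 to 1783 in shC cells without LPS. The order of levels with LPS was Tnf, Tnfsf9 and Ltb in every library. Tnfsf15 was next in shGIV cells, ahead of Tnfsf10 and Tnfsf12, which lay close together and changed places between libraries. In shC cells with LPS the next were Tnfsf12, Tnfsf13 and Tnfsf10, with Tnfsf15 below Tnfsf13b. Lta and Tnfsf14 were lowest in all 4 libraries with LPS.

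**Figure D1:**
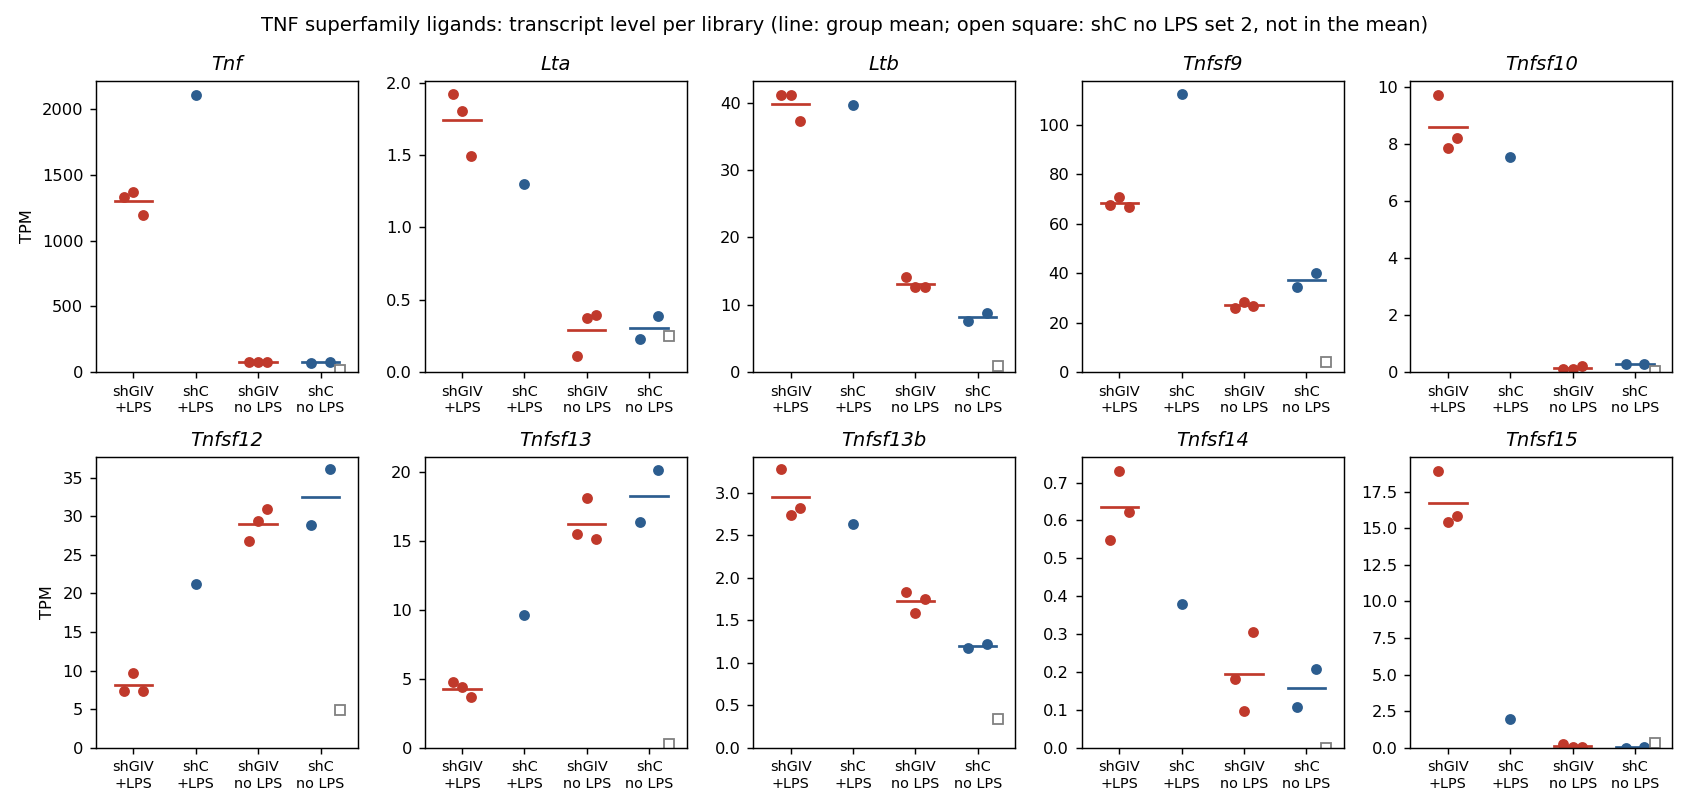
Transcript level (TPM, linear axis from 0, a scale of its own per gene) of each ligand by library, with filled points for the 9 libraries of the main fit, lines for group means and open squares for the library shown apart. With LPS, Tnf sits at 1197 to 1368 TPM in shGIV cells and at 2108 TPM in shC cells, while Tnfsf15 sits at 15.4 to 18.9 TPM in shGIV cells and at 1.95 TPM in shC cells.

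Tnf (ENSMUSG00000024401, chr17:35199381-35202007, minus strand) encodes tumour necrosis factor, which signals through TNF receptors 1 and 2. The Tnf level was 1333, 1368 and 1197 TPM in shGIV cells with LPS and 2108 TPM in shC cells with LPS. Without LPS, shGIV cells had 77.6, 79.6 and 79.8 TPM and shC cells had 71.7 and 76.4 TPM, with 12.4 TPM in the library shown apart. All LPS libraries lay far above all libraries without LPS, and with LPS each shGIV library lay below the shC library. Means with LPS were 1299 ± 90.4 TPM (SD, n = 3) in shGIV cells against 2108 TPM in the lone shC library, or 61.6%. Mean Tnf with LPS was 16.4-fold that without LPS in shGIV cells and 28.5-fold in shC cells. On the log2(TPM + 1) scale used in all tests below, the LPS response was 4.02 ± 0.06 (SE, limma adjusted p = 3.47e-09) in shGIV cells and 4.81 ± 0.09 (adjusted p = 3.82e-08) in shC cells.

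The lymphotoxin genes flank Tnf on chromosome 17. Lta (ENSMUSG00000024402, chr17:35203165-35205351, minus strand) lies upstream of Tnf, and 1157 bases separate its end from the start of Tnf. It encodes lymphotoxin alpha, which binds TNF receptors alone and the lymphotoxin beta receptor when joined to Ltb. Lta was at 1.92, 1.80 and 1.49 TPM in shGIV cells with LPS and at 1.298 TPM in shC cells with LPS. In the absence of LPS, 0.108, 0.375 and 0.391 TPM was measured in shGIV cells and 0.227 and 0.388 TPM in shC cells, with 0.249 TPM in the library shown apart. Lta was thus scarce in every library, and the LPS libraries lay above those without LPS in both lines. Ltb (ENSMUSG00000024399, chr17:35194439-35196320, plus strand) lies 3060 bases from Tnf on its other side and encodes the membrane anchor of the lymphotoxin complex. Ltb was at 41.2, 41.1 and 37.3 TPM in shGIV cells with LPS and at 39.6 TPM in shC cells with LPS, within the shGIV range. At rest, that is without LPS, shGIV cells had 14.1, 12.6 and 12.7 TPM and shC cells had 7.56 and 8.73 TPM, which did not overlap, with 0.927 TPM in the library shown apart. The log2 response of Ltb to LPS was 1.53 ± 0.08 (SE, limma adjusted p = 1.02e-06) in shGIV cells and 2.15 ± 0.12 (adjusted p = 4.47e-06) in shC cells. That of Lta was 1.09 ± 0.17 in shGIV cells and 0.82 ± 0.25 in shC cells, and the shC value was 0.73 without set 1 of shC cells without LPS. Lta reached the level needed for a test only in the LPS libraries, so its responses are given as values only.

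Tnfsf9 (ENSMUSG00000035678, chr17:57105325-57107757, plus strand) encodes the ligand of 4-1BB, a costimulatory receptor of T cells. It was at 67.8, 70.7 and 66.7 TPM in shGIV cells with LPS and at 112 TPM in shC cells with LPS. The levels without LPS were 25.9, 28.3 and 26.9 TPM in shGIV cells and 34.5 and 40.3 TPM in shC cells, with 4.16 TPM in the library shown apart. The shGIV libraries lay below the shC libraries both with and without LPS, and LPS raised the transcript in both lines. Its log2 LPS response was 1.31 ± 0.07 (SE, limma adjusted p = 1.25e-06) in shGIV cells and 1.57 ± 0.11 (adjusted p = 1.21e-05) in shC cells. Tnfsf14 (ENSMUSG00000005824, chr17:57189492-57194177, minus strand) lies 81734 bases from Tnfsf9, with Cd70 between them. It encodes LIGHT, which binds the herpesvirus entry mediator and the lymphotoxin beta receptor. Tnfsf14 was at 0.549, 0.732 and 0.623 TPM in shGIV cells with LPS and at 0.379 TPM in shC cells with LPS, against 0.180, 0.0973 and 0.305 TPM in shGIV cells and 0.108 and 0.208 TPM in shC cells without LPS. It was listed at 0 in the library shown apart, stayed below 1 TPM in every library and did not pass the filter on low values, so no test was made.

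Tnfsf15 (ENSMUSG00000050395, chr4:63727084-63745113, minus strand) encodes TL1A, a costimulator of lymphocytes that binds death receptor 3. It was at 18.9, 15.4 and 15.9 TPM in shGIV cells with LPS, against 1.95 TPM in shC cells with LPS. Tnfsf15 was near 0 without LPS, at 0.232, 0.0637 and 0.0401 TPM in shGIV cells and 0.0142 and 0.0540 TPM in shC cells, with 0.294 TPM in the library shown apart. All 3 shGIV libraries with LPS lay far above the shC library with LPS, and each LPS library lay above every library without LPS. The ratio of mean TPM with LPS, shGIV over shC, was 8.56. The log2 response to LPS was 3.99 ± 0.13 (SE) in shGIV cells and 1.51 ± 0.19 in shC cells. Tnfsf15 passed the filter on low values only through the LPS libraries, so these responses are given as values only.

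Tnfsf10 (ENSMUSG00000039304, chr3:27317028-27342427, plus strand) encodes TRAIL, a death ligand. It was at 9.72, 7.87 and 8.22 TPM in shGIV cells with LPS and at 7.55 TPM in shC cells with LPS. Without LPS, shGIV cells had 0.115, 0.110 and 0.214 TPM and shC cells had 0.285 and 0.293 TPM, with 0.0506 TPM in the library shown apart. Every LPS library lay far above every library without LPS, and the lone shC library with LPS lay just below the 3 shGIV libraries. Its log2 LPS response was 3.06 ± 0.12 (SE) in shGIV cells and 2.73 ± 0.18 in shC cells. Like Tnfsf15, it passed the filter only through the LPS libraries, so these responses are given as values only.

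Tnfsf12 and Tnfsf13 lie 465 bases apart on the minus strand of chromosome 11, and both were lower with LPS. Tnfsf12 (ENSMUSG00000097328, chr11:69686250-69695849) encodes TWEAK, the ligand of Fn14, and was at 7.33, 9.65 and 7.33 TPM in shGIV cells with LPS and at 21.2 TPM in shC cells with LPS. In the absence of LPS, 26.8, 29.4 and 30.9 TPM was measured in shGIV cells and 28.9 and 36.1 TPM in shC cells, with 4.90 TPM in the library shown apart. The shGIV libraries with LPS were the lowest group, the shC library with LPS lay between, and the groups without LPS overlapped. Tnfsf13 (ENSMUSG00000089669, chr11:69682846-69685784) encodes APRIL, which acts on B cells and plasma cells, and was at 4.77, 4.44 and 3.65 TPM in shGIV cells with LPS and at 9.60 TPM in shC cells with LPS. At rest, shGIV cells had 15.5, 18.2 and 15.2 TPM and shC cells had 16.4 and 20.1 TPM, with 0.243 TPM in the library shown apart. The order of the groups was the same as for Tnfsf12. The log2 LPS response of Tnfsf12 was -1.73 ± 0.13 (SE, limma adjusted p = 6.38e-06) in shGIV cells and -0.59 ± 0.19 (adjusted p = 0.0288) in shC cells. That of Tnfsf13 was -1.71 ± 0.12 (adjusted p = 5.01e-06) in shGIV cells and -0.85 ± 0.18 (adjusted p = 0.00422) in shC cells.

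The read-through gene Tnfsfm13 spans both of these genes on the same strand, sharing 9600 bases with Tnfsf12 and 2939 with Tnfsf13, so the split of reads among the 3 genes is uncertain. An antisense gene, Tnfsf13os, overlaps both and was at 0.577, 0.428 and 0.102 TPM in shGIV cells with LPS, 1.14 TPM in shC cells with LPS, and 2.26 to 4.04 TPM in the 5 libraries without LPS. Summed, Tnfsf12, Tnfsf13 and Tnfsfm13 were at 14.7, 17.3 and 13.8 TPM in shGIV cells with LPS and at 37.6 TPM in shC cells with LPS. The levels without LPS were 52.4, 55.1 and 56.9 TPM in shGIV cells and 56.5 and 71.0 TPM in shC cells. The sum kept the group order of the single genes, and its log2 LPS response was -1.78 ± 0.11 (SE, limma adjusted p = 2.34e-06) in shGIV cells and -0.74 ± 0.16 (adjusted p = 0.00538) in shC cells.

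Tnfsf13b (ENSMUSG00000031497, chr8:10006467-10039072, plus strand) encodes BAFF, the B cell survival factor. It was at 3.28, 2.73 and 2.82 TPM in shGIV cells with LPS and at 2.63 TPM in shC cells with LPS. Without LPS, shGIV cells had 1.83, 1.59 and 1.74 TPM and shC cells had 1.17 and 1.22 TPM, with 0.340 TPM in the library shown apart. LPS libraries lay above those without LPS in both lines, and without LPS the shGIV libraries lay above the shC libraries. Its log2 LPS response was small, at 0.53 ± 0.11 (SE, limma adjusted p = 0.0023) in shGIV cells and 0.73 ± 0.16 (adjusted p = 0.00596) in shC cells.

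Across the family, 9 of the 10 ligands could be tested, and in each line 7 were called higher and 2 (Tnfsf12 and Tnfsf13) lower with LPS. Of 13711 genes tested, 75.5% were called in shGIV cells, 15.8% higher and 59.7% lower. In shC cells 58.9% were called, 14.8% higher and 44.1% lower. The shC response sets 1 library with LPS (set 2) against sets 1 and 3 without LPS. LPS and set cannot be told apart there, and the spread of the lone library is borrowed from the rest. With only these groups fitted, Lta, Tnfsf12, Tnfsf13 and Tnfsf13b were not called in shC cells. Lta, Tnfsf10 and Tnfsf15 passed the filter only through the LPS libraries, so they had to differ and their calls carry no weight as a count. The remaining 6 tested ligands were above the filter with and without LPS, and 4 of them (Tnf, Ltb, Tnfsf9 and Tnfsf13b) were higher. The median log2 LPS response of these 6 was 0.92 in shGIV cells and 1.15 in shC cells. It was -0.54 in shGIV cells and -0.39 in shC cells over the 12058 genes that reached the same minimum in libraries of both kinds. Over all genes tested the medians were -0.54 in shGIV cells and -0.40 in shC cells. With TMM scaling these were -0.06 in shGIV cells and -0.02 in shC cells, the calls split into 4305 higher and 4883 lower in shGIV cells and 3577 higher and 3649 lower in shC cells, and Tnfsf12 in shC cells was at -0.16 (adjusted p = 0.473). Quantile normalization gave 3748 higher and 5586 lower in shGIV cells and 2980 higher and 4357 lower in shC cells, with Tnfsf12 at -0.29 (adjusted p = 0.179) and Tnfsf13 at -0.39 (adjusted p = 0.0551) in shC cells. With all 10 libraries, 4 ligands were called in shGIV cells (Tnf, Lta, Tnfsf10 and Tnfsf15), beside 16.1% of all genes (5.64% higher and 10.4% lower). Here too, Lta, Tnfsf10 and Tnfsf15 carry no weight as a count in either line, which leaves Tnf. In shC cells 2 were called (Tnf and Tnfsf10), beside 3.46% (3.07% higher and 0.381% lower). Without set 3 of shC cells without LPS, Tnfsf12 in shC cells was at -0.43 (adjusted p = 0.11).

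**Figure D2:**
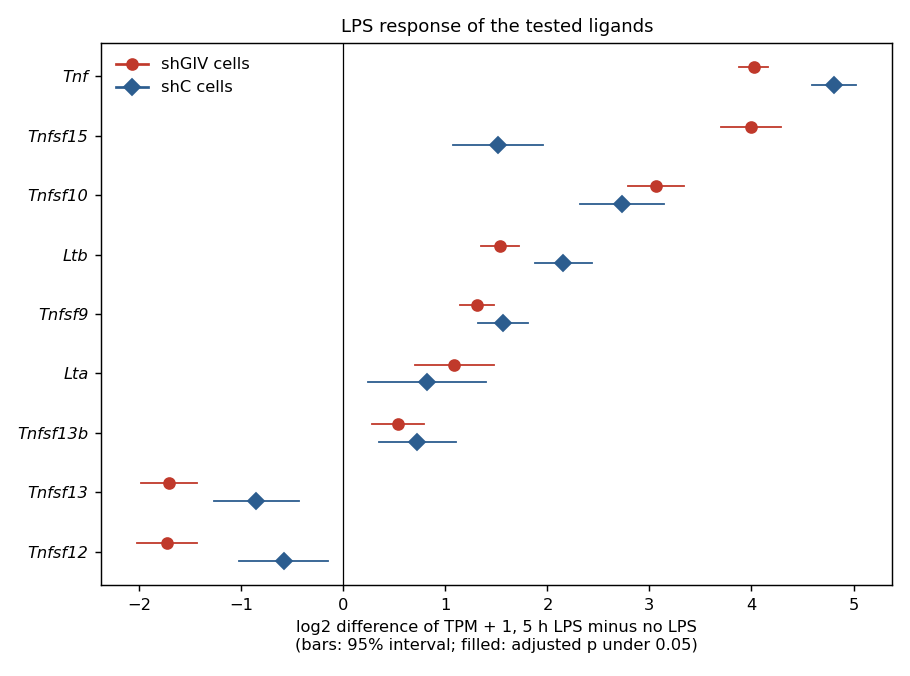
Log2 difference of TPM + 1, with LPS minus without LPS, of the 9 tested ligands in shGIV cells (circles) and shC cells (diamonds), with bars for the 95% interval of the fit and filled symbols for an adjusted p under 0.05. Tnfsf15 has the widest gap between the lines, at 3.99 in shGIV cells and 1.51 in shC cells, and Tnfsf12 and Tnfsf13 alone lie left of 0.

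Comparing shGIV with shC cells without LPS asked whether the ligands differed before stimulation. Ltb was higher in shGIV cells, by a log2 difference of 0.63 ± 0.09 (SE, limma adjusted p = 0.0209), and Tnfsf9 was lower, by -0.45 ± 0.08 (adjusted p = 0.0471). These were 2 of 9 ligands, beside 1.22% of all genes called, of which 0.489% were higher and 0.729% lower. Tnf differed by 0.09 ± 0.07, with a 95% interval of -0.07 to 0.25 and an adjusted p of 0.658. Tnfsf13b differed by 0.31 ± 0.12 with groups that did not overlap, but its adjusted p was 0.368. The other 5 tested ligands lay between -0.17 and 0.10, with adjusted p of 0.669 to 0.984. The call of Ltb was lost without any 1 of the 5 libraries without LPS (adjusted p 0.0509 to 0.102), and that of Tnfsf9 without any 1 of the 6 shGIV libraries or without set 3 of shC cells without LPS (0.0815 to 0.159). With all 10 libraries neither was called: Ltb was at 1.38 (adjusted p = 0.472) and Tnfsf9 was at 0.51 (adjusted p = 0.618), the opposite direction.

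With LPS, 5 of the 9 tested ligands differed between the lines, and the lone shC library with LPS decides the size of each difference. Tnfsf15 was higher in shGIV cells, by a log2 difference of 2.58 ± 0.18 (SE, limma adjusted p = 0.00116). Lower in shGIV cells were Tnf by -0.70 ± 0.09 (adjusted p = 0.00837), Tnfsf9 by -0.71 ± 0.10 (adjusted p = 0.011), Tnfsf12 by -1.30 ± 0.18 (adjusted p = 0.0105) and Tnfsf13 by -1.01 ± 0.17 (adjusted p = 0.0192). Mean TPM in shGIV cells was 60.8% of the shC value for Tnfsf9, 38.2% for Tnfsf12 and 44.7% for Tnfsf13. Of all genes, 5.27% were called, 0.89% higher and 4.38% lower. Ltb differed by 0.01 ± 0.11, with a 95% interval of -0.25 to 0.27 (adjusted p = 0.986), Lta by 0.25 ± 0.23, with an interval of -0.30 to 0.80 (adjusted p = 0.587), and Tnfsf10 by 0.16 ± 0.17, with an interval of -0.23 to 0.55 (adjusted p = 0.625). Tnfsf13b differed by 0.12 ± 0.15 (adjusted p = 0.711). The summed level of Tnfsf12, Tnfsf13 and Tnfsfm13 was lower in shGIV cells by -1.25 ± 0.15 (adjusted p = 0.00788). The spread of the lone shC library is borrowed from the rest, and limma called none of the 5 when these 2 groups were fitted by themselves. With all 10 libraries no gene of the table was called between the lines by limma, and 1 ligand was at an unadjusted p under 0.05 in each of these line comparisons, beside 1.59% of all genes with LPS and 2.93% without.

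**Figure D3:**
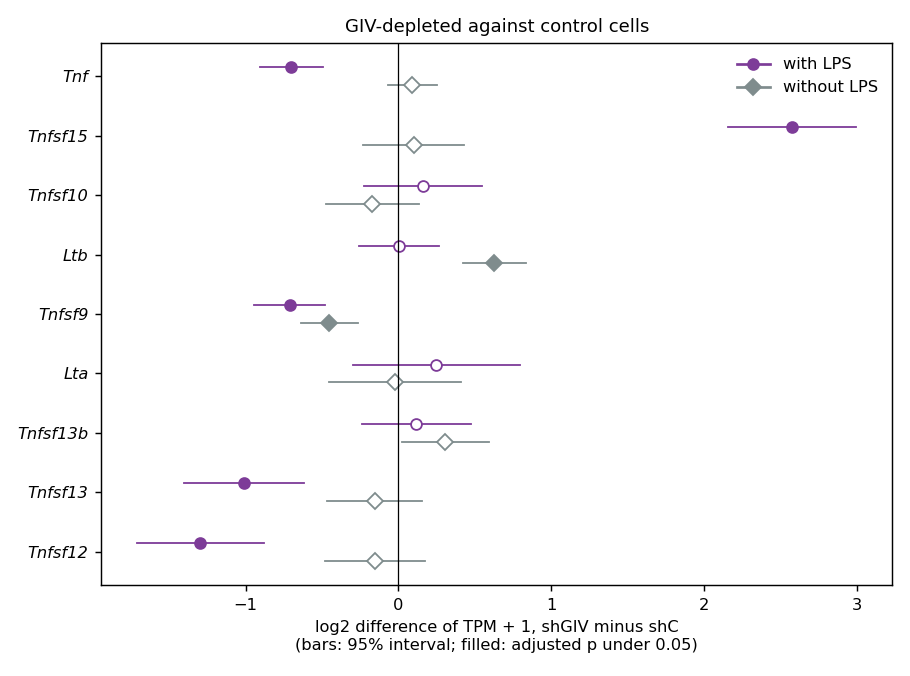
Log2 difference of TPM + 1, shGIV minus shC, of the 9 tested ligands with LPS (circles) and without LPS (diamonds), with bars for the 95% interval of the fit and filled symbols for an adjusted p under 0.05. With LPS, Tnfsf15 lies at 2.58 and Tnf, Tnfsf9, Tnfsf12 and Tnfsf13 lie at -0.70 to -1.30, while Ltb and Tnfsf9 alone are filled without LPS.

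Whether LPS acted differently in the lines was tested by the difference of the responses, shGIV minus shC. Tnfsf15 alone was called, at 2.48 ± 0.23 (SE, 95% interval 1.94 to 3.01, limma adjusted p = 0.0198), beside 0.226% of all genes called, 0.0948% higher and 0.131% lower. Tnf was at -0.79 ± 0.11 (adjusted p = 0.051), just outside the threshold. Under TMM scaling it was at -0.64 and called. Over all the alternatives run, the Tnf value lay between -1.62 and -0.64, and most of them left it uncalled. Tnfsf12 was at -1.14 ± 0.23 (adjusted p = 0.0872), Tnfsf13 at -0.85 ± 0.21 (adjusted p = 0.122) and Ltb at -0.62 ± 0.14 (adjusted p = 0.108). The other 4 tested ligands lay between -0.26 and 0.33, with adjusted p of 0.344 to 0.674. The Tnfsf15 value was 2.39 to 2.53 and its adjusted p 0.0612 to 0.084 without any 1 of the 3 shGIV libraries with LPS or sets 2 and 3 of shGIV cells without LPS. The Tnfsf15 value was 2.59 with all 10 libraries, 2.46 with 0.1 added to TPM in place of 1, and 2.35 with the set number as a block. It was called in none of these. These responses share their libraries with the line comparisons above and are not separate evidence.

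Genes whose levels tracked a ligand most closely were ranked by the root mean square difference of their centred log2(TPM + 1) values over the 9 libraries, as a description. Nearest to Tnf was Edn1, the vasoconstrictor endothelin 1, at a difference of 0.0837. Edn1 was at 19.7, 16.8 and 15.6 TPM in shGIV cells with LPS, at 27.9 TPM in shC cells with LPS, and at most 0.0874 TPM without LPS. The added 1 thus largely sets the log2 response of Edn1, and its match to Tnf holds on this scale only. Slc15a3, a lysosomal peptide transporter, and the complement gene C3 followed, at 0.110 and 0.113. Nearest to Tnfsf15 was Il33, an alarmin cytokine, at 0.172. Il33 was at 18.8, 13.6 and 18.0 TPM in shGIV cells with LPS and at 2.70 TPM in shC cells with LPS, and was listed at 0 in all 5 libraries without LPS. Tnfsf15 was near 0 without LPS too, so the added 1 bears on this match as well. The interferon-induced Gbp4 came next, farther off at 0.343. Gusb, the lysosomal beta-glucuronidase, was nearest to both Tnfsf12 (0.0968) and Tnfsf13 (0.0886). Nearest to Ltb were Irak2, a kinase of Toll-like receptor signalling (0.150), and Lck (0.157), and nearest to Tnfsf9 was Rasgef1b (0.0936), with the TNF regulator Litaf and the macrophage marker Adgre1 after it. For Tnfsf10 it was the phosphatase Dusp16 (0.0600), for Tnfsf13b Stambpl1 (0.0614) and for Lta the chaperone Dnajb1 (0.0997). Without LPS, Tnfsf10 was at most 0.293 TPM and Lta at most 0.391 TPM, so the added 1 bears on their matches too.

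The receptors of these ligands moved in both directions with LPS. Of 28 receptor genes of the family, 18 were tested, and 15 were called with LPS in each line, beside 75.5% of all genes in shGIV cells and 58.9% in shC cells. Tnfrsf8, Tnfrsf9 and Eda2r passed the filter only through the LPS libraries, so they had to differ. Of the other 15 receptors, 5 were higher and 7 lower in each line, beside 14.6% higher and 61.5% lower in shGIV cells and 14.3% higher and 45.3% lower in shC cells over the 12058 genes that reached the minimum with and without LPS. Their median log2 response was -0.18 in shGIV cells and -0.51 in shC cells. The largest rise was in Cd40, the receptor of CD40 ligand, with a log2 response of 7.44 in shGIV cells and 7.93 in shC cells, followed by the death receptor Fas at 5.47 in shGIV cells and 4.95 in shC cells. Tnfrsf8, the receptor CD30, was at 2.90 in shGIV cells and 2.95 in shC cells. Tnfrsf1b, TNF receptor 2, was at 517, 553 and 489 TPM in shGIV cells with LPS and 710 TPM in shC cells with LPS, and its log2 response was 4.95 in shGIV cells and 5.22 in shC cells. In the absence of LPS, 13.8, 15.1 and 18.9 TPM was measured in shGIV cells and 15.9 and 20.5 TPM in shC cells. Tnfrsf1a, TNF receptor 1, changed less, with a log2 response of 1.01 in shGIV cells and 1.16 in shC cells. Tnfrsf9, the receptor of Tnfsf9, was at 1.39 in shGIV cells and 0.94 in shC cells, and Tnfrsf14, a receptor of Tnfsf14, at 1.07 in shGIV cells and 1.21 in shC cells.

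Other receptors were lower or did not pass the test. Tnfrsf12a, the TWEAK receptor Fn14, was lower with LPS, at -1.17 in shGIV cells and -0.84 in shC cells, as were the TRAIL decoy receptors Tnfrsf22 and Tnfrsf23, Tnfrsf22 at -1.81 in shGIV cells and -1.21 in shC cells, and Tnfrsf23 at -1.04 in shGIV cells and -0.81 in shC cells. Tnfrsf11a, the RANK receptor of osteoclast precursors, was at -1.73 in shGIV cells and -1.72 in shC cells, and Relt at -1.83 in shGIV cells and -2.19 in shC cells. Ltbr, the lymphotoxin beta receptor, was at -0.18 (adjusted p = 0.252) in shGIV cells and 0.13 (adjusted p = 0.578) in shC cells, and Tnfrsf10b, the TRAIL receptor, at 0.00 (adjusted p = 0.995) in shGIV cells and 0.04 (adjusted p = 0.823) in shC cells. Tnfrsf17, which binds APRIL and BAFF, was at -0.17 (adjusted p = 0.329) in shGIV cells and -0.82 (adjusted p = 0.0161) in shC cells. The TL1A receptor Tnfrsf25 was listed at 0 in all 4 libraries with LPS and was at 0.0286 to 0.261 TPM in the 5 without. Between the lines, Cd40 was higher in shGIV cells without LPS (0.75, limma adjusted p = 0.0317). Tnfrsf26 (-0.64) and Tnfrsf23 (-0.50) were lower in shGIV cells with LPS, where the lone shC library decides the size of each difference. With all 10 libraries no gene was called between the lines. No receptor was called for the difference of the responses by limma, and 3 of the 18 were at an unadjusted p under 0.05, a share near the 17.3% of all genes.

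**Figure D4:**
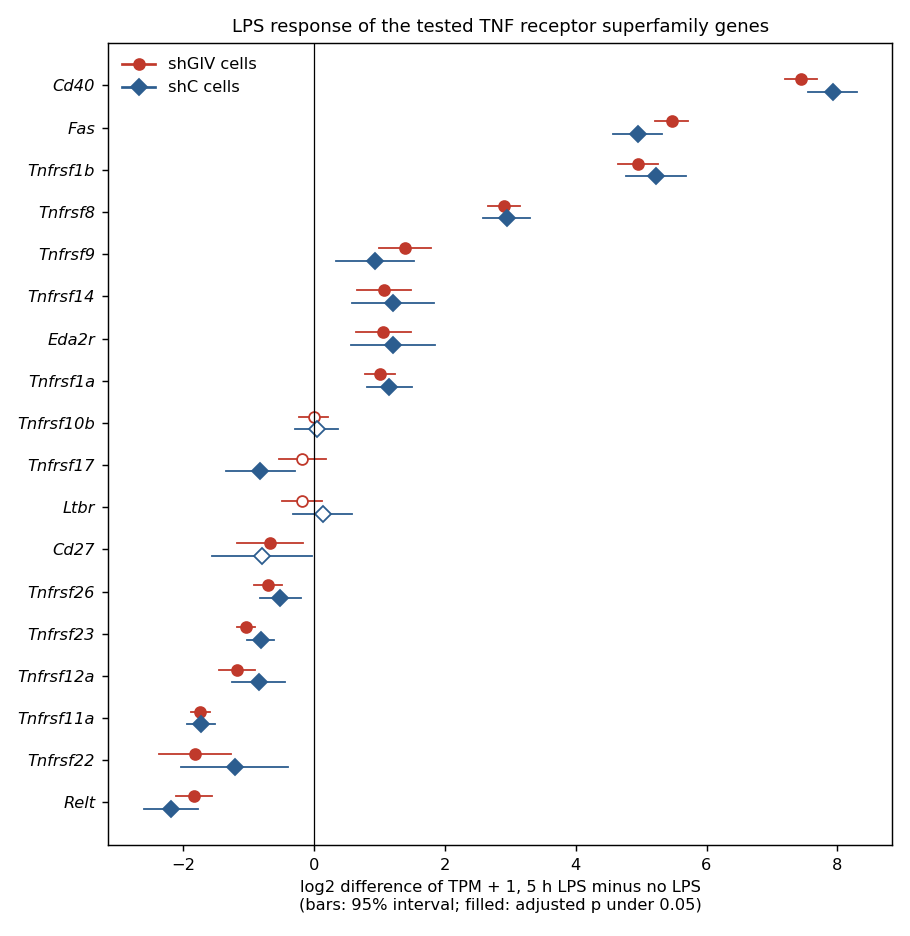
Log2 difference of TPM + 1, with LPS minus without LPS, of the 18 tested receptor genes in shGIV cells (circles) and shC cells (diamonds), with bars for the 95% interval of the fit and filled symbols for an adjusted p under 0.05. The lines lie close together for most receptors, from Cd40 at 7.44 in shGIV cells and 7.93 in shC cells to Relt at -1.83 in shGIV cells and -2.19 in shC cells.

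Among 22 tested genes of signalling next to the receptors, 10 were higher and 10 lower with LPS in shGIV cells, beside 15.8% higher and 59.7% lower over all genes. In shC cells 10 were higher and 7 lower, beside 14.8% and 44.1%. The deubiquitinase Tnfaip3 (A20), a brake on NF-kB, was higher by 4.39 in shGIV cells and 4.56 in shC cells on the log2 scale. The adaptor Traf1 was at 3.15 in shGIV cells and 3.47 in shC cells, the caspase-8 inhibitor Cflar at 2.17 in shGIV cells and 2.35 in shC cells, and the A20 partner Tnip1 at 1.97 in shGIV cells and 2.42 in shC cells. Fadd, the death-domain adaptor, was lower by -1.51 in shGIV cells and -1.22 in shC cells. By limma none of the 22 was called between the lines with LPS, without LPS or for the difference of the responses, where 3, 4 and 3 of them were at an unadjusted p under 0.05, beside 22.1%, 12.2% and 17.3% of all genes.

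Of 9 tested genes that process the ligands, 4 were higher and 5 lower with LPS in shGIV cells, and 4 were higher and 3 lower in shC cells, beside 75.5% of all genes called in shGIV cells and 58.9% in shC cells. Furin, a protease that cleaves several ligands, was higher with LPS by 2.58 in shGIV cells and 2.60 in shC cells, Rhbdf2, the iRhom that carries ADAM17 to the surface, by 2.40 in shGIV cells and 2.62 in shC cells, and Sppl2a, which cleaves the TNF stub in the membrane, by 1.61 in shGIV cells and 1.49 in shC cells. Adam17, the TNF sheddase, was at 62.0, 61.9 and 61.3 TPM in shGIV cells with LPS and at 98.2 TPM in shC cells with LPS. At rest, shGIV cells had 84.7, 82.4 and 83.9 TPM and shC cells had 94.9 and 94.0 TPM. The shGIV libraries were below the shC libraries at both times, and with LPS the log2 difference was -0.66 ± 0.06 (SE). The difference of its LPS responses was -0.49 ± 0.08 and was not called by limma. Adam10, a related sheddase, was also lower in shGIV cells with LPS, by -0.45 ± 0.07. The lone shC library with LPS decides the size of each of these differences, and its spread is borrowed from the rest. With all 10 libraries no gene was called between the lines.

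Of the 11 factors that bind or control TNF mRNA, all were tested, and 5 were higher and 5 lower with LPS in shGIV cells (15.8% and 59.7% of all genes), while 4 were higher and 3 lower in shC cells (14.8% and 44.1% of all genes). The 7 of 11 called in shC cells are a share near the 58.9% of all genes called there. Zfp36, tristetraprolin itself, was at 802, 863 and 722 TPM in shGIV cells with LPS and at 654 TPM in shC cells with LPS. The levels without LPS were 23.6, 25.2 and 24.4 TPM in shGIV cells and 24.6 and 27.5 TPM in shC cells. Its log2 response was 4.97 ± 0.08 in shGIV cells and 4.60 ± 0.12 in shC cells, and the difference between the responses was 0.37 ± 0.14 (SE, limma adjusted p = 0.241). Zc3h12a, the RNase Regnase-1, was higher with LPS by 3.69 in shGIV cells and 4.06 in shC cells. The tristetraprolin relative Zfp36l2 was at 17.5, 12.9 and 14.5 TPM in shGIV cells with LPS and at 12.3 TPM in shC cells with LPS, against 60.8 to 63.9 TPM in shGIV cells and 69.2 and 75.7 TPM in shC cells without LPS. It was lower with LPS in both lines (limma adjusted p = 1.05e-06 in shGIV cells and 8.79e-06 in shC cells). Mapkapk2, the kinase MK2 that acts on tristetraprolin, was at 377 to 410 TPM in shGIV cells with LPS and 448 TPM in shC cells with LPS, and it was higher with LPS in both (adjusted p = 1.85e-07 in shGIV cells and 2.15e-06 in shC cells). Zfp36l1, another relative, was at 4.53, 4.54 and 4.23 TPM in shGIV cells with LPS and at 1.20 TPM in shC cells with LPS. Without LPS, shGIV cells had 3.19, 2.53 and 2.58 TPM and shC cells had 1.12 and 1.28 TPM. The shGIV libraries lay above the shC libraries at both times, by 1.31 ± 0.15 with LPS and by 0.77 ± 0.12 (limma adjusted p = 0.0312) without. The lone shC library with LPS decides the size of the first difference. With all 10 libraries no gene was called between the lines.

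Other ligands of the family were mostly near 0. Of 9 further ligand genes, Tnfsf11, Cd40lg, Fasl, Cd70, Eda and Tnfsf18 stayed below 0.4 TPM in each of the 9 libraries. Tnfsf4, the OX40 ligand, was at 3.31, 2.32 and 2.12 TPM in shGIV cells with LPS and at 0.484 TPM in shC cells with LPS, and was listed at 0 in all libraries without LPS. Tnfsf4 reached the minimum of the filter only in the shGIV libraries with LPS, the group where it was highest, so its test was fixed in part by the filter. Its log2 difference with LPS, shGIV minus shC, is given as a value only, 1.26 ± 0.25 (SE). Tnfsf8, the CD30 ligand, was at 1.36, 1.26 and 1.24 TPM in shGIV cells with LPS against 0.220 TPM in shC cells with LPS, and at 0.816, 0.705 and 0.519 TPM in shGIV cells without LPS against 0.0863 and 0.0628 TPM in shC cells without LPS. The shGIV libraries lay above the shC libraries at both times. Tnfsf8 also reached the minimum only in the shGIV libraries with LPS, so no test is given for it.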

How the data were processed

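The data are total RNA libraries of mouse RAW cells, sequenced in pairs of 100-base reads per the labels' protocols. The authors deposited log2 values per gene, which are log2(TPM + 1) made with kallisto 0.45.0 on GRCm38, per the submitters' processing notes; the annotation release is not given in the sources used here. TPM adds up to 1000000 in each library, so the read depth and the counting precision behind each value are unknown, and no interval covers counting error. Labels list 11 samples; 10 have a column, and shC cells with LPS of set 3 were not analysed here. Ligands and all gene lists were chosen with earlier results of these data known.

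From those values, limma 3.58.1 in R 4.3.3 fitted a mean for each of 4 groups over 9 libraries, with eBayes(trend=TRUE) and 5 residual degrees of freedom. A gene entered the test where 2 or more libraries had a log2 value of 1 or more (13711 genes; 13919 with 10 libraries). Benjamini-Hochberg adjustment was made over all genes tested within each of 5 comparisons, and an adjusted p under 0.05 was a call. The set 2 library of shC cells without LPS was left out for its composition, and the fit with all 10 libraries was an alternative. Further alternatives changed the model (the set number as a block, eBayes with no trend, eBayes with robust=TRUE, the compared groups alone, each library left out), the filter (none, or a value of 3 or more), the pseudocount (0.1) or the scaling. Scaling used TMM factors calculated on TPM with trims of 30% and 5%, quantile normalization, or TPM rescaled after dropping mitochondrial genes and the 100 most abundant ones. Summing Tnfsf12, Tnfsf13 and Tnfsfm13 was added after seeing the data. The fit was tested on simulated data. All 10 ligands are named, with up to 4 called genes of largest change per list and comparison, the receptors of the ligands, and the 3 nearest genes per ligand; Relt, Tnfrsf11a, Fadd, Tnfsf8 and the ligands near 0 were named after their values were seen. Positions are from GENCODE M21 and promoters from RefSeq, matched by symbol. Software was Python 3.11.15 with matplotlib 3.10.9, pandas 2.3.3 and numpy 2.4.6.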

Additional observations from a re-analysis of the deposited data

Results flagged for a closer look

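In the main fit, the LPS response of Tnfsf15 differed between the lines by a test of the difference itself. This call was lost in 8 of 18 alternatives. On the log2(TPM + 1) scale it was 3.99 ± 0.13 in shGIV cells and 1.51 ± 0.19 in shC cells, and shGIV minus shC was 2.48 ± 0.23 (SE, limma adjusted p = 0.0198). All 3 shGIV libraries with LPS, at 18.9, 15.4 and 15.9 TPM, lay above the lone shC library with LPS, at 1.95 TPM. Mean TPM rose 150-fold in shGIV cells and 57.3-fold in shC cells from levels near 0, so the added 1 bears on the size of each log2 response. The difference was 2.46 with 0.1 added to TPM in place of 1 and 2.35 with the set number as a block, and was called in neither. Over the alternatives run, the adjusted p ranged from 0.0030 to 0.556.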

How the results depend on the processing

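Of 864 ligand values recomputed under other settings, 783 kept their direction and side of the threshold, 67 lost a call, 5 gained one (Tnf, difference of the responses) and 12 changed sign, 3 of which are among the 67. Many of the 864 could not change sign. Leaving out a library outside a comparison, or changing only the filter or eBayes, keeps the log2 value. The summed level of Tnfsf12, Tnfsf13 and Tnfsfm13 was counted under both Tnfsf12 and Tnfsf13. Values that changed sign were those of Tnfsf12 (0.25) and Tnfsf13 (0.46) for LPS in shC cells, and of Tnfsf9 (0.51), Tnfsf12 (0.68), Tnfsf13 (1.16) and Tnfsf15 (-0.0073) for shGIV against shC without LPS, all with 10 libraries. When each library was left out, Lta without LPS lay between -0.111 and 0.0836, Tnfsf12 without LPS between -0.31 and 0.0038 and Ltb with LPS between -0.0173 and 0.0536. The Tnfsf9 difference was 0.0478 with quantile normalization.

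Counts below are genes called, then ligands called. Where called, Lta, Tnfsf10 and Tnfsf15 are counted for LPS, although they passed the filter only through the LPS libraries. For LPS in shGIV cells, 10349 and 9 became 2236 and 4 with 10 libraries, and 9844 to 10407 and 9 when each library was left out. For LPS in shC cells, 8075 and 9 became 481 and 2 with 10 libraries, 2859 and 5 with only the groups compared, and 7333 to 8022 and 8 to 9 when each was left out. For shGIV against shC without LPS, 167 and 2 became 0 and 0 with 10 libraries, 101 and 0 with no filter, 16 and 0 with only the groups compared, and 58 to 167 and 0 to 2 when each was left out. There, quantile normalization called 309 genes and rescaling 277, and eBayes without trend 1 ligand. With LPS, 722 and 5 became 0 and 0 with 10 libraries, 56 and 0 with only the groups compared, and 325 to 953 and 5 when each was left out. The split of these calls was 122 higher and 600 lower, against 314 and 357 with TMM scaling, 228 and 305 with quantile normalization and 234 and 445 with rescaling. For the difference of the responses, 31 and 1 became 0 and 0 with 10 libraries, 377 and 2 with no filter, 73 and 2 with the stricter filter, 87 and 2 with TMM scaling, 64 and 2 with rescaling and 54 and 2 with eBayes robust, 0 ligands with a pseudocount of 0.1, and 0 to 21 and 0 to 1 when each was left out. Its calls split into 13 higher and 18 lower, against 47 and 40 with TMM scaling and 25 and 14 with quantile normalization. The cause of these shifts was not tested.

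The set numbers are not stated to mark a shared culture or day. Deviations of same-numbered shGIV libraries with and without LPS correlated at 0.06, 0.07 and 0.10. Those of differently numbered shGIV libraries correlated at -0.0707 to -0.0042. Deviations within a group sum to 0, so these values are tied to each other. With the set number as a replicate block, counts were 58 and 0 without LPS, 83 and 1 with LPS, and 0 and 0 for the difference, where 5 of 9 ligands were at an unadjusted p under 0.05, beside 13.3% of all genes. Leaving out the lone shC library with LPS leaves no value for the comparisons that need it, and only the groups compared is the same fit for the difference. TPM keeps no read total, so depth sets no stated limit for ligands below 1 TPM.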

Other observations

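In the library of shC cells without LPS that was shown apart, the 10 ligands summed to 23.6 TPM, and Tnf took 52.6% of that sum. Tnf ranked 1482 among all genes there, against 1707 and 1783 in the other shC libraries without LPS. Tnfsf13 was at 0.243 TPM and Ltb at 0.927 TPM, and Tnfsf15, at 0.294 TPM, was above its level in each of the other 5 libraries without LPS.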
